A study of Mus musculus with 6 samples.

Results

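The genes described here encode the chains of the integrins and laminins. They were taken from the gene table by symbol, as Itga or Itgb genes and as Lama, Lamb or Lamc genes with at least 1 count in any library. The table holds 55401 genes, of which 37 matched by name and 35 had counts, namely 16 integrin α chains, 8 integrin β chains and 11 laminin chains. Itgad and Itgax, α chains of leukocytes, had 0 counts in all 6 libraries. Each of the 35 chains passed the filter on low counts and was tested.

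RNA was sequenced from the frontonasal and maxillary prominences, which form the nose, midface and upper jaw, at E10.5 in 3 Tfap2Δ/NCKO mutants and 3 control littermates. Mutants (Tfap2a null/flox; Tfap2b null/flox; Wnt1:CRE) lacked both AP-2 transcription factor genes in the neural crest lineage and carried a null allele of each in every other tissue. Controls carried no CRE and whichever Tfap2a and Tfap2b alleles they had inherited, and all mice were on a mixed background. Wnt1:CRE recombines in premigratory neural crest, so facial ectoderm, endothelium, blood cells and mesoderm in the dissected tissue kept their floxed alleles. Every mutant and no control carried the transgene, so its own effect and that of AP-2 loss cannot be told apart. Every mutant also carried the null alleles outside the crest, while the alleles of each control were not given. Loss in crest and reduced gene dose in other tissues therefore cannot be told apart either.

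An integrin is a pair of 1 α and 1 β chain that spans the cell membrane, binds matrix or another cell outside and links to actin inside through talin, kindlin and other adaptors. The α chain largely sets the ligand. One set binds laminin, another collagen, a further set the RGD tripeptide of fibronectin, vitronectin and nephronectin, and a leukocyte set binds receptors on other cells. A laminin is a trimer of 1 α, 1 β and 1 γ chain and is the main scaffold of basement membranes. In the embryonic face, laminin lies under the surface and nasal epithelium and around vessels, while neural crest cells migrate on fibronectin and settle as mesenchyme beneath the epithelium. The comparison of genotypes asks which of these adhesion genes differ between these mutants and their control littermates.

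The libraries held 68119668 to 77555252 counts, and levels are given as CPM, counts scaled to a common library total. The summed level of 4 Y-linked genes was 149 to 156 CPM in the mutants, against 0.0802, 148 and 0.0265 CPM in controls 1, 2 and 3, so that control 2 was the only control with Y-linked expression like the mutants'. Genotype was thus partly confounded with what Y-linked expression marks, and their effects cannot be fully told apart. The labelled tissue was checked on 6 markers of crest mesenchyme (Prrx1, Prrx2, Twist1, Pdgfra, Alx1 and Six2). All were present, with a summed level of 613 to 656 CPM in mutants and 727 to 751 CPM in controls. Mutant 3 held the highest CPM of the 6 libraries for 18 of the 35 chains, against 17.4% of all genes tested. In bulk tissue, fewer cells of a type and less RNA per cell cannot be told apart.

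The midface at E10.5 expressed a small set of chains at high level. Itgb1, the common β partner of most α chains, had the highest level per length of the 35, at 68.5 ± 1.52 CPM per kilobase of exon (CPM/kb) in mutants and 61.9 ± 4.04 CPM/kb in controls (SD, n = 3 each here and below). Itgb5, which pairs with the αv chain as a vitronectin receptor, followed at 35.8 ± 1.92 CPM/kb in mutants and 40.5 ± 0.99 CPM/kb in controls. Lamc1, the γ chain of most laminins, stood at 16.4 ± 0.886 CPM/kb in mutants and 15.1 ± 0.973 CPM/kb in controls. Together with Itga5, Itga6 and Lamb1 these were the 6 chains at or above a mean of 10 CPM/kb, and 17 chains lay below 1 CPM/kb. On this scale Itgb1 made up 62.4 to 63.9% of all β chain signal in mutants and 57.2 to 59.2% in controls. Among the α chains, the collagen-binding and leukocyte sets were low, with summed levels of 1.83 to 2.96 and 0.51 to 0.553 CPM/kb in mutants and of 1.996 to 2.07 and 0.617 to 0.852 CPM/kb in controls.

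**Figure D1:**
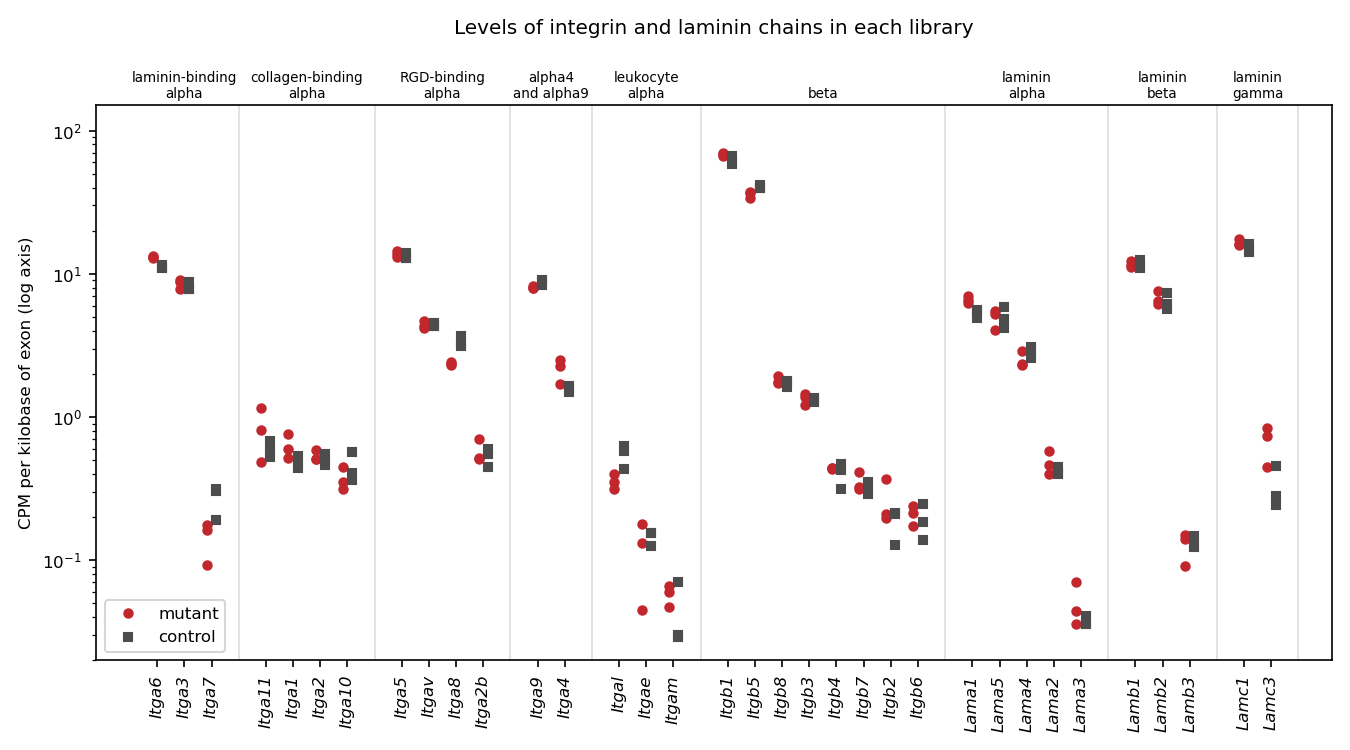
Level of 34 of the chains in CPM per kilobase of exon (log axis), grouped by role, with mutant libraries as red circles left of control libraries as grey squares. Itgb1 and Itgb5 lie above every other chain, and the collagen-binding and leukocyte α chains lie near or below 1.

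Genotypes were compared with edgeR's quasi-likelihood F test on the counts of all genes, and a gene was said to rise or fall (called) where its adjusted p lay below 0.05 and its log2 fold change beyond 0.32 in either direction. Across the 35 chains 1 passed. Itga8, the RGD-binding partner of Itgb1 that is a receptor for nephronectin, fell in mutants, and no chain rose. Among all 19612 genes tested 64 (0.326%) were called, 0.219% lower and 0.107% higher in mutants. Differences with an unadjusted p below 0.05 in edgeR's test were frequent among the chains. They were found for 12 of 35, Itga8 included, 7 higher and 5 lower, against 7.95% of all genes tested (4.3% higher and 3.65% lower). Mutant and control libraries did not overlap for 10 of 35 chains, 5 above and 5 below the controls, against 13.4% of all genes tested (7.15% above and 6.24% below). Among genes with a mean count of at least 500 these figures were 8 of 20 chains and 12.4% of genes. The log2 fold change was above 0 for 26 of the 35 chains, against 50.3% of all genes tested, with a median of 0.09 beside 0.00 over all genes tested, and it ran from -0.90 for Itga7 to 1.05 for Lamc3. For 11 chains the whole 95% interval lay inside that limit. DESeq2 called 3 of the 34 chains that it gave an adjusted p, Itga4 and Lamc3 higher and Itga8 lower, against 1.58% of genes (0.689% higher and 0.887% lower).

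**Figure D2:**
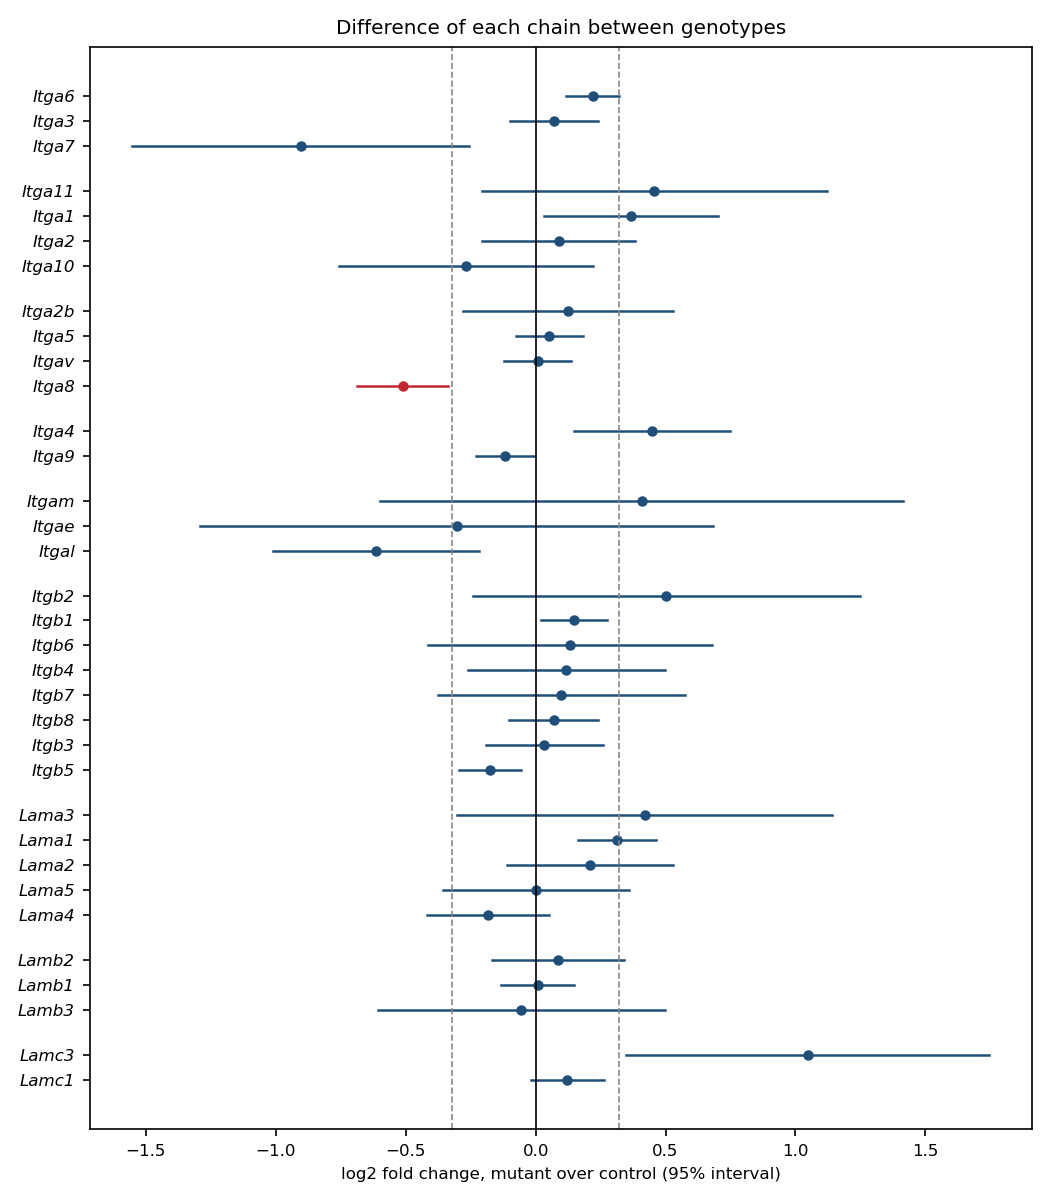
Log2 fold change of mutant over control for 34 of the chains (points) with its 95% interval from edgeR (bars), grouped by role in the order laminin-binding, collagen-binding, RGD-binding, Itga4 with Itga9, leukocyte, beta, laminin alpha, beta and gamma. Dashed lines mark the limit of a call, 0.32 either way, and Itga8 (red) is the chain called, at -0.51.

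The RGD-binding α chains were led by Itga5, the fibronectin receptor chain, and held the chain that changed. Itga8 (ENSMUSG00000026768.10, mm10 chromosome 2, 12106632 to 12301922, counted over all exons) stood at 17.8, 17.3 and 17.02 CPM in mutants 1, 2 and 3, against 27.2, 23.9 and 23.2 CPM in controls 1, 2 and 3. Every mutant lay below every control, and the mutants were closer to each other (0.391 CPM SD) than the controls were (2.16 CPM SD). Its log2 fold change was -0.51 (SE 0.08, 95% interval -0.69 to -0.34, adjusted p = 0.0422 by edgeR), a fold of 0.702. The call was close to the limit, since leaving out any 1 of the 6 libraries ended it (adjusted p 0.0638 without control 2 to 0.172 without mutant 2), with the log2 fold change between -0.56 and -0.45. A fit with Y-linked expression as a covariate also ended it (log2 fold change -0.46, SE 0.11, adjusted p = 0.257), as did the fit without the robust option (adjusted p = 0.0599), while DESeq2 gave an adjusted p of 2.66e-06.

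Exons of Itga8 are shared over 372 bases (5.05% of its exon bases) with E030013I19Rik on the opposite strand, and reads of this pair may not have been kept apart. E030013I19Rik had 39, 33 and 39 counts in mutants 1, 2 and 3, against 70, 69 and 57 in controls 1, 2 and 3, far fewer than the 1170 to 1330 counts of Itga8 in mutants and 1734 to 2038 in controls. The groups did not overlap for this gene either (log2 fold change -0.77, adjusted p = 0.296). The crest mesenchyme markers named above were lower in mutants as well (6 of 6), with a median log2 fold change of -0.24. For 4 of the 6 all mutants lay below all controls, against 6.24% of all genes tested. The 1 called was Alx1 (log2 fold change -0.41, adjusted p = 0.0108 by edgeR). The study proposes that AP-2 factors regulate Alx1 directly. The part of these markers in the Itga8 result was not tested.

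Of the other RGD-binding chains, Itga5 and Itgav showed differences close to 0, while the interval of Itga2b reached past the limit of a call. Itga5 stood at 64.5, 67.9 and 71.1 CPM in mutants 1, 2 and 3, against 63.7, 63.8 and 68.7 CPM in controls 1, 2 and 3, with a log2 fold change of 0.05 (95% interval -0.08 to 0.18). Its groups overlapped, and the interval does not reach the fold limit. Itgav, the αv chain that pairs with several β chains, averaged 47.3 ± 2.55 CPM in mutants and 47.04 ± 1.14 CPM in controls (95% interval of the log2 fold change -0.12 to 0.14). Itga2b, the platelet fibrinogen receptor chain, averaged 3.15 ± 0.598 CPM in mutants and 2.89 ± 0.414 CPM in controls (log2 fold change 0.12, 95% interval -0.28 to 0.53). The 6 megakaryocyte and platelet markers had a summed level of 4.44 to 6.82 CPM in mutants and 4.33 to 5.96 CPM in controls.

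To show the DNA in front of the chains, the 250 bases upstream of the RefSeq start (GRCm38.p6, 5′ to 3′ on the gene's strand) are printed for Itga8, for Itga4 and for Itgb5, the first of the chains, in order of unadjusted p, that had a window in the RefSeq promoter table. The search was for GCCNNNGGC, a form of the AP-2 consensus that reads the same on both strands, and matches are in capitals. Itga8 lies at chr2:12301945-12302194 on the minus strand, Itga4 at chr2:79255176-79255425 on the plus strand and Itgb5 at chr16:33829415-33829664 on the plus strand.
Itga8: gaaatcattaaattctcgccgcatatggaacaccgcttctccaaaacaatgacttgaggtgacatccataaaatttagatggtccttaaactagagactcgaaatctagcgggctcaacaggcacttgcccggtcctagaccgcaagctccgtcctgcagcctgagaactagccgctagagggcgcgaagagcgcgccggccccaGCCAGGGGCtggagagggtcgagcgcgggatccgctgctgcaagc
Itga4: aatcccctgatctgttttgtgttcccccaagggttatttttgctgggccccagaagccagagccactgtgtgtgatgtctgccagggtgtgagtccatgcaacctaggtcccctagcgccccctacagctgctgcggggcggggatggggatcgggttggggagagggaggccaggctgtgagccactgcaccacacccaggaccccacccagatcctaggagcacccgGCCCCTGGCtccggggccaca
Itgb5: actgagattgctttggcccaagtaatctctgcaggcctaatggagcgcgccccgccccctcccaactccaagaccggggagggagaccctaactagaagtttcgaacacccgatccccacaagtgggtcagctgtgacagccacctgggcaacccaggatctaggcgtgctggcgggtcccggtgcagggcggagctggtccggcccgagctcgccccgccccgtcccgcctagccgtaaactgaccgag
The motif began at position -45 before the start of Itga8 and at -21 before that of Itga4, whose fold changes had opposite signs, and the Itgb5 window held none. Over windows of 300 bases (250 before and 50 after the start) it was present for 4 of the 22 chains with a window (18.2%), the others being Itga11 at -131 and Itga2 at -135, and for 18.5% of the 27025 genes in the RefSeq table. A match describes these letters only.

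Chains of the laminin receptors and of laminin itself stood higher in mutants in several cases, and none passed the test. Itga6 (ENSMUSG00000027111.16, mm10 chromosome 2, 71745616 to 71858416), the α chain of laminin receptors that pairs with Itgb1 or Itgb4, stood at 121, 118 and 116 CPM in mutants 1, 2 and 3, against 104, 101 and 99.7 CPM in controls 1, 2 and 3. All mutants lay above all controls, with little spread within either group. Its log2 fold change was 0.22 (SE 0.04, 95% interval 0.12 to 0.32, adjusted p = 0.111 by edgeR). DESeq2 gave Itga6 an adjusted p of 0.00158, but its fold change is below the limit of a call with either tool. Itga3, the other widely expressed α chain for laminin, averaged 48.8 ± 3.999 CPM in mutants and 46.5 ± 2.99 CPM in controls (log2 fold change 0.07, 95% interval -0.10 to 0.24). The Itga6 share of laminin-binding α signal per length was 59.2 to 61.7% in mutants and 54.96 to 59.1% in controls, so the ranges did not overlap.

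Itga7, the laminin receptor chain best known from muscle, was 1 of the few chains with lower values. It stood at 0.746, 1.42 and 1.32 CPM in mutants 1, 2 and 3, against 1.54, 2.55 and 2.45 CPM in controls 1, 2 and 3. The groups did not overlap, on 52 to 185 counts per library (log2 fold change -0.90, SE 0.28, adjusted p = 0.363). The 5 crest glia markers were lower in mutants as well, at a summed 44.8 to 58.5 CPM, against 77.3 to 99.4 CPM in controls, while the 4 muscle markers summed to 4.26 to 7.08 CPM in mutants and 2.31 to 5.07 CPM in controls. The part of either in the Itga7 values was not tested.

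Among the laminin α chains, Lama1, the α chain of the earliest embryonic basement membranes, had the smallest adjusted p. Lama1 (ENSMUSG00000032796.8, mm10 chromosome 17, 67697259 to 67822647) stood at 63.6, 60.6 and 67.6 CPM in mutants 1, 2 and 3, against 53.7, 47.6 and 53.05 CPM in controls 1, 2 and 3. The genotypes did not overlap. The log2 fold change of Lama1 was 0.31 (SE 0.07, 95% interval 0.16 to 0.46, adjusted p = 0.119 by edgeR), and DESeq2 gave an adjusted p of 0.0028 with a fold change just under the limit. Lama5, the broadly expressed epithelial α chain, averaged 56.4 ± 8.75 CPM in mutants and 56.4 ± 9.46 CPM in controls (log2 fold change 0.00, 95% interval -0.36 to 0.36). Lama4, an α chain of vessel walls, averaged 30.4 ± 4.07 CPM in mutants and 34.5 ± 2.90 CPM in controls (log2 fold change -0.18, 95% interval -0.42 to 0.05). The 8 endothelial markers had a summed level of 294 to 318 CPM in mutants and 268 to 279 CPM in controls, and their part in the Lama4 values was not tested. Lama2 and Lama3, of muscle and of skin, averaged 7.86 ± 1.47 and 0.539 ± 0.192 CPM in mutants and 6.80 ± 0.443 and 0.404 ± 0.0318 CPM in controls, and both were highest in mutant 3.

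Of the γ chains, Lamc3 and Lamc1 had higher means in mutants, with overlapping groups. Lamc3, a γ chain of restricted expression (ENSMUSG00000026840.14, mm10 chromosome 2, 31887291 to 31946539), had the largest fitted fold of the 35 chains. It stood at 2.73, 5.11 and 4.51 CPM in mutants 1, 2 and 3, against 1.47, 2.79 and 1.71 CPM in controls 1, 2 and 3. Mutant 1 lay just below control 2, so the groups overlapped (log2 fold change 1.05, SE 0.30, 95% interval 0.35 to 1.75, adjusted p = 0.319). DESeq2 called it (adjusted p = 0.0322), while the Y-linked covariate gave a log2 fold change of 0.56 (adjusted p = 0.956) and control 2 against the 3 mutants, a comparison added after the data were seen, gave 0.54. Its counts ran from 110 to 352 per library, and 382 of its exon bases are shared with Gm13441 on the opposite strand, which had at most 4 counts in a library.

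Lamc1 stood at 133, 130 and 144 CPM in mutants 1, 2 and 3, against 124, 117 and 133 CPM in controls 1, 2 and 3, with overlapping groups (log2 fold change 0.12, 95% interval -0.02 to 0.26). Lamb1, the β chain most often joined to Lamc1, stood at 114, 111 and 121 CPM in mutants 1, 2 and 3, against 108, 113 and 123 CPM in controls 1, 2 and 3 (log2 fold change 0.01, 95% interval -0.13 to 0.15). With 1 library left out the Lamb1 value ran from -0.042 to 0.054, on both sides of 0. Lamb2 and Lamb3, the β chains of vessel and muscle membranes and of skin, averaged 41.2 ± 4.45 and 0.84 ± 0.207 CPM in mutants and 38.8 ± 5.34 and 0.874 ± 0.0879 CPM in controls.

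Markers of surface epithelium, under which laminin lies, were also somewhat higher in mutants. The 8 markers summed to 305 to 364 CPM in mutants and 281 to 302 CPM in controls, 6 of 8 were higher, the median log2 fold change was 0.19 and 1 of 8 did not overlap between groups and 0 were called by edgeR (5 with an unadjusted p below 0.05). Among the mutants, mutant 3 had the lowest epithelial sum and the lowest Itga6. Lama1 and Lamc1 were among the 18 of 35 chains that were highest in mutant 3, against 17.4% of all genes tested. Itgb4, the β chain that joins Itga6 in hemidesmosomes of epithelium, stood at 3.10, 3.05 and 3.10 CPM in mutants 1, 2 and 3, against 2.20, 3.01 and 3.31 CPM in controls 1, 2 and 3 (log2 fold change 0.12, 95% interval -0.26 to 0.50), and its sign changed without control 1 (log2 fold change -0.04). The 5 neuroepithelium markers (Sox1, Pax6, Neurog2, Elavl3 and Tubb3) summed to 328 to 402 CPM in mutants and 358 to 440 CPM in controls. Of these 3 were higher and 2 lower in mutants, with a median log2 fold change of 0.13 and 0 called. For 2 of the 5 all mutants lay above all controls, against 7.15% of all genes tested. The part of surface epithelium or neuroepithelium in the laminin chain values was not tested.

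**Figure D3:**
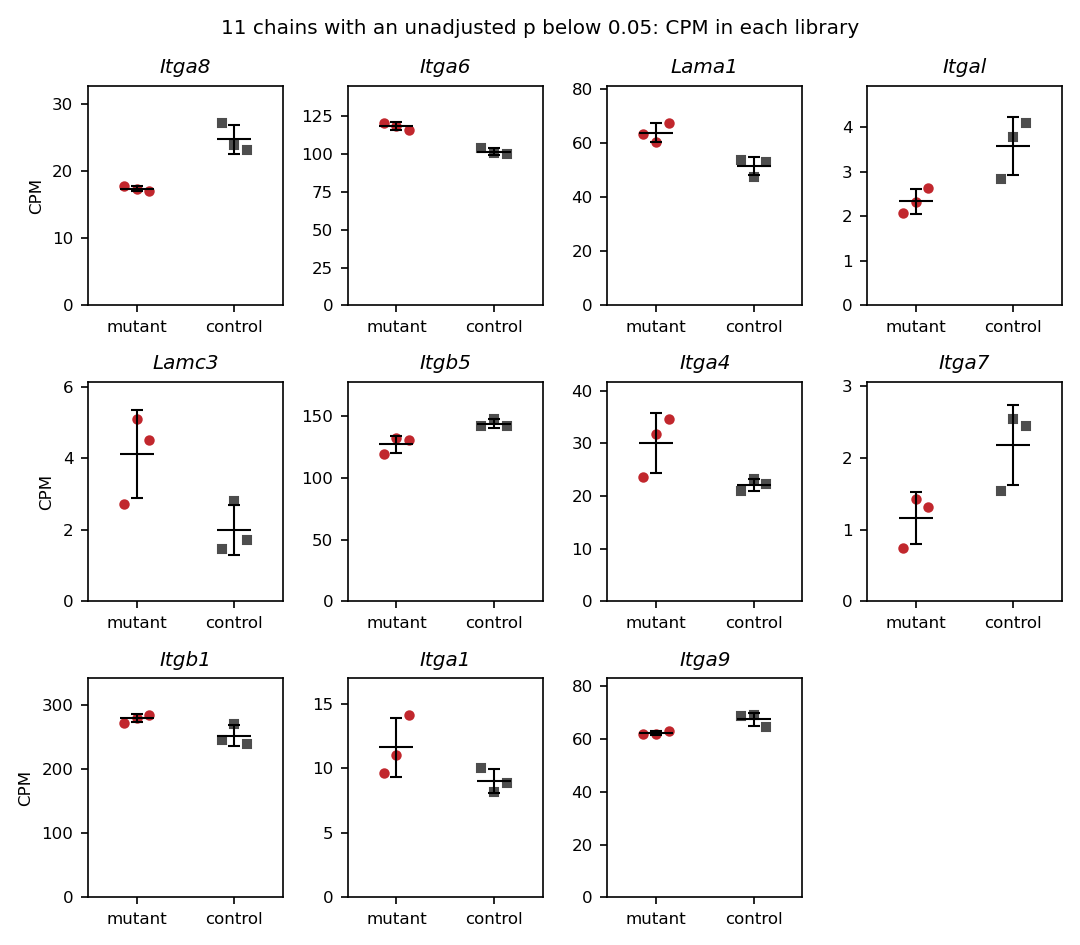
CPM in each library for 11 of the 12 chains with an unadjusted p below 0.05 (axes start at 0), mutants as red circles on the left and controls as grey squares on the right, with mean and SD as black bars. Mutants and controls do not overlap in 9 of the 11 panels, the exceptions being Lamc3 and Itga1. The panels were picked by p from these same libraries, which favours groups that do not overlap. Over all chains the groups did not overlap for 10 of 35, against 13.4% of all genes tested.

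Of the pair Itga4 and Itga9, which bind fibronectin, tenascin and cell surface ligands and whose tails bind paxillin, 1 lay higher and 1 lower in mutants. Itga4 (ENSMUSG00000027009.18, mm10 chromosome 2, 79255426 to 79333123) stood at 23.7, 31.9 and 34.7 CPM in mutants 1, 2 and 3, against 20.9, 23.2 and 22.2 CPM in controls 1, 2 and 3. Mutants 2 and 3 lay well above the controls, and mutant 1 lay only just above control 2. Its log2 fold change was 0.45 (SE 0.13, 95% interval 0.15 to 0.75, adjusted p = 0.321 by edgeR). Itga4 was called without mutant 1 (log2 fold change 0.59, adjusted p = 0.0474) and by DESeq2 on all libraries (0.0397). Exons of Itga4 are shared over 1124 bases with Cerkl on the opposite strand, which had 68 to 127 counts in mutants and 78 to 167 in controls, while Itga4 had 1652 to 2713 counts in mutants and 1563 to 1682 in controls.

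Itga9 was lower and far steadier. It stood at 61.6, 61.7 and 63.0 CPM in mutants 1, 2 and 3, against 68.5, 69.1 and 64.4 CPM in controls 1, 2 and 3, so that the groups did not overlap but control 3 was close to mutant 3. Its log2 fold change was -0.12 (SE 0.05, 95% interval -0.23 to -0.01, adjusted p = 0.593). Itga9 made up 76.7 to 82.5% of the signal per length of the pair in mutants and 84.1 to 85.6% in controls, ranges that did not overlap.

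The collagen-binding α chains were expressed at low level, and 3 of the 4 were highest in mutant 3. Itga11, a collagen receptor chain of mesenchymal cells and the highest of the 4 per length, stood at 2.50, 4.19 and 5.96 CPM in mutants 1, 2 and 3, against 3.03, 3.50 and 2.70 CPM in controls 1, 2 and 3. Mutant 1 was the lowest and mutant 3 the highest of all libraries (log2 fold change 0.46, SE 0.29, adjusted p = 0.84). Itga1 had the same order of mutants, at 9.63, 11.1 and 14.2 CPM in mutants 1, 2 and 3, against 10.01, 8.15 and 8.91 CPM in controls 1, 2 and 3 (log2 fold change 0.37, SE 0.15, adjusted p = 0.56). Without mutant 3 the log2 fold change of Itga11 was 0.12 and that of Itga1 was 0.20, and without mutant 1 that of Itga11 was 0.72. Itga2 averaged 3.81 ± 0.314 CPM in mutants and 3.59 ± 0.324 CPM in controls. Itga10, a receptor chain of cartilage, averaged 1.92 ± 0.358 CPM in mutants and 2.32 ± 0.559 CPM in controls, and 33.5% of its exon bases are shared with Gm42957 on the same strand, so its value is uncertain.

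Chains of leukocyte integrins were near the bottom of the range and did not differ in 1 direction. Itgal, the α chain of the lymphocyte receptor LFA-1, stood at 2.07, 2.31 and 2.62 CPM in mutants 1, 2 and 3, against 2.85, 3.79 and 4.10 CPM in controls 1, 2 and 3. All mutants lay below all controls (log2 fold change -0.62, SE 0.17, 95% interval -1.01 to -0.22, adjusted p = 0.282 by edgeR). Its obligate partner Itgb2 stood at 0.646, 0.607 and 1.13 CPM in mutants 1, 2 and 3, against 0.387, 0.647 and 0.648 CPM in controls 1, 2 and 3, with overlapping groups and a log2 fold change of 0.50 (95% interval -0.24 to 1.248), which was 0.16 without mutant 3, 0.29 without control 1 and 0.30 with the Y-linked covariate. Per length Itgal lay above Itgb2 in each genotype, at 0.355 ± 0.0425 against 0.26 ± 0.0948 CPM/kb in mutants and 0.545 ± 0.0995 against 0.184 ± 0.0492 CPM/kb in controls. Itgam, the α chain of the macrophage receptor Mac-1, averaged 0.29 ± 0.0489 CPM in mutants and 0.219 ± 0.12 CPM in controls on 11 to 27 counts per library, and 68.7% of its exon bases are shared with Gm49368 on the same strand.

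The 10 macrophage markers were higher in mutants, with a summed level of 52.5 to 76.98 CPM in mutants and 31.1 to 42.3 CPM in controls, a median log2 fold change of 0.77 and 1 called. Itgal was lower in the same mutants, and the part of macrophages in the Itgb2 and Itgam values was not tested. Itgae, the α chain of resident lymphocytes in epithelium, and its partner Itgb7 averaged 0.543 ± 0.312 and 0.974 ± 0.152 CPM in mutants and 0.667 ± 0.0769 and 0.909 ± 0.0967 CPM in controls.

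Of the β chains, Itgb1 lay slightly higher and Itgb5 slightly lower in mutants. Itgb1 stood at 273, 280 and 286 CPM in mutants 1, 2 and 3, against 246, 271 and 240 CPM in controls 1, 2 and 3. The groups did not overlap, although control 2 came close to mutant 1 (log2 fold change 0.15, SE 0.06, 95% interval 0.02 to 0.28, adjusted p = 0.522). With the Y-linked covariate the log2 fold change of Itgb1 was 0.04. In control 2 against the 3 mutants, a comparison added after the data were seen, it was 0.03. Itgb5 stood at 119, 132 and 130 CPM in mutants 1, 2 and 3, against 142, 148 and 142 CPM in controls 1, 2 and 3, and all mutants lay below all controls (log2 fold change -0.18, SE 0.05, 95% interval -0.30 to -0.06, adjusted p = 0.321). The shares of Itgb1 in all β chain signal given above did not overlap between genotypes.

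Of the remaining αv partners, Itgb8 and Itgb3 had intervals inside the limit of a call, and that of Itgb6 passed it on both sides. Itgb8, which with αv releases active TGF-β, averaged 19.9 ± 1.23 CPM in mutants and 19.001 ± 1.04 CPM in controls (95% interval of the log2 fold change -0.10 to 0.24). Itgb3, shared by platelets, bone and vessels, averaged 7.95 ± 0.703 CPM in mutants and 7.77 ± 0.231 CPM in controls (95% interval -0.19 to 0.26). Itgb6, an epithelial αv partner, averaged 1.48 ± 0.235 CPM in mutants and 1.35 ± 0.389 CPM in controls (95% interval -0.42 to 0.68).

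The genes that act with these chains were read from a list of 46 ligands, basement membrane proteins and intracellular linkers, of which all were tested, 1 rose, 1 fell and 44 did not pass. Among all genes tested 0.107% rose and 0.219% fell. Vtn, which encodes vitronectin, the ligand of the αvβ5 and αvβ3 receptors, rose. It stood at 8.07, 9.40 and 9.97 CPM in mutants 1, 2 and 3, against 4.58, 5.47 and 5.09 CPM in controls 1, 2 and 3 (log2 fold change 0.86 with an SE of 0.12, edgeR adjusted p = 0.028). The Vtn call was lost when control 1, control 3, mutant 2 or mutant 3 was left out (0.104 to 0.144), and also under the Y-linked covariate (log2 fold change 0.74, adjusted p = 0.307). Frem1, a basement membrane protein of the Fraser complex that binds beneath embryonic epithelium, fell. It stood at 54.8, 58.1 and 58.8 CPM in mutants 1, 2 and 3, against 72.7, 73.9 and 69.2 CPM in controls 1, 2 and 3 (log2 fold change -0.33, SE 0.05, adjusted p = 0.047). Its call was lost without any 1 of the 6 libraries (adjusted p 0.0913 to 0.159) and with the Y-linked covariate (log2 fold change -0.37, adjusted p = 0.202). Fras1 and Frem2, listed from the same complex, were not called and lay above 0 (log2 fold change 0.25 and 0.09, adjusted p = 0.605 and 0.951 by edgeR).

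Of the 11 ligands 1 was called and 10 did not pass, with a median log2 fold change of 0.04. Postn, the matrix protein periostin, was among the genes that the study reported as upregulated in these samples. It stood at 53.9, 57.8 and 71.6 CPM in mutants 1, 2 and 3, against 25.8, 37.9 and 30.2 CPM in controls 1, 2 and 3 (log2 fold change 0.96, SE 0.16, adjusted p = 0.0914 by edgeR). Postn was called without control 2 (log2 fold change 1.12, adjusted p = 0.0244 by edgeR) and by DESeq2 on all libraries (adjusted p = 6.21e-09). Npnt, nephronectin, the ligand of the Itga8 receptor, averaged 60.9 ± 1.001 CPM in mutants and 59.2 ± 2.92 CPM in controls (log2 fold change 0.04, 95% interval -0.08 to 0.16). Fn1, fibronectin, averaged 241 ± 39.2 CPM in mutants and 246 ± 18.4 CPM in controls.

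Of the 13 basement membrane genes 1 was called and 12 did not pass, and the median log2 fold change was 0.01. Of the 22 linker and signalling genes 3 had an unadjusted p below 0.05 in edgeR's test, against 7.95% of all genes tested. Of the 22, 0 passed in edgeR's test and 0 in that of DESeq2, and the median was 0.02. The smallest adjusted p among them belonged to Pxn, the adaptor paxillin (92.1 ± 1.95 CPM in mutants and 111 ± 6.74 CPM in controls, log2 fold change -0.27, SE 0.05, adjusted p = 0.106), and to Tns3, a tensin that joins β chain tails to actin (119.9 ± 5.99 CPM in mutants and 140 ± 5.22 CPM in controls, log2 fold change -0.22, SE 0.05, adjusted p = 0.184). For both genes all mutants lay below all controls, and DESeq2 gave adjusted p-values of 0.00139 for Pxn and 0.0123 for Tns3 with fold changes under the limit of a call.

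**Figure D4:**
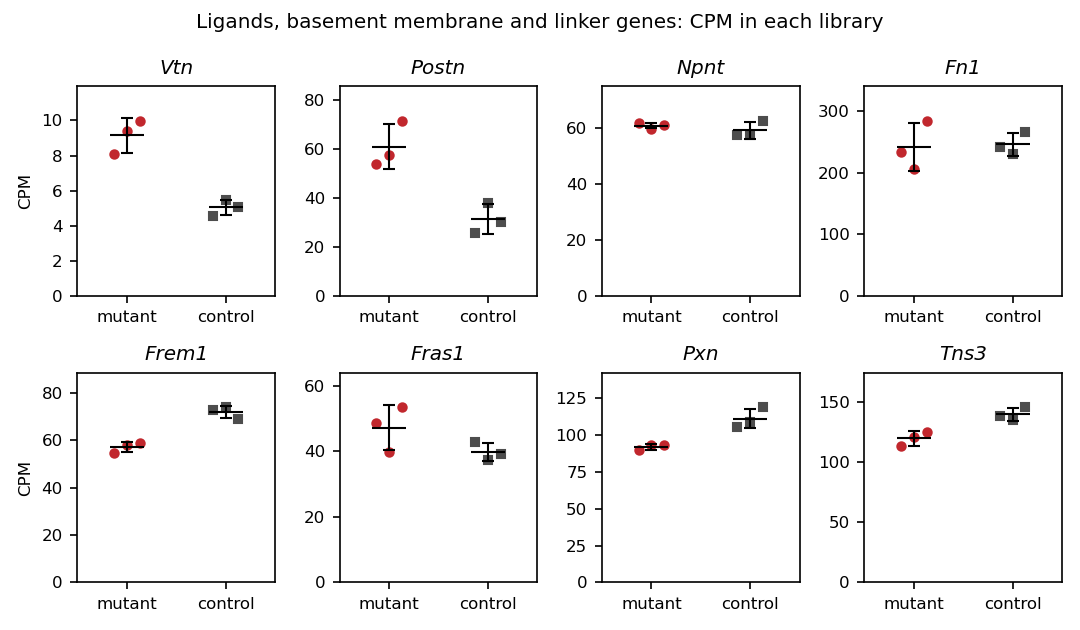
CPM in each library for ligands (Vtn, Postn, Npnt, Fn1), basement membrane genes (Frem1, Fras1) and linkers (Pxn, Tns3), axes from 0, mutants as red circles on the left and controls as grey squares on the right with mean and SD. Vtn and Frem1, the genes called, separate the genotypes in opposite directions, and Npnt and Fn1 overlap.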

How the data were processed

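Frontonasal and maxillary prominences were dissected from 3 mutant and 3 control embryos at E10.5. Per the study's methods, poly(A) libraries were made with a strand-preserving kit and read from 1 end (150 bases). Reads were aligned by the authors to mm10 (STAR), reference transcripts were quantified with StringTie in estimation mode, and prepDE made the gene table. Its deposited values are estimated counts, whole numbers that prepDE derives from coverage, with no strand option among the listed settings. Tool versions, the release of the annotation and prepDE's read length setting were not given in the sources used here. The table's DESeq2 columns and a second table (kallisto, sleuth) hold the authors' own comparisons and were not used. All 6 per-sample columns were used, and groups and replicate numbers came from the sample titles. Per the study, the groups were 3 littermates each, so each library was taken as 1 embryo.

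Genes were filtered with filterByExpr, scaled with TMM and compared by edgeR's robust quasi-likelihood F test (R 4.3.3, edgeR 4.0.16) without a covariate. Benjamini-Hochberg adjustment covered the 19612 tested of 55401 genes. Calls needed an adjusted p under 0.05 together with a fold over 1.25 either way. The SE was taken as |log2 fold change| / √F. CPM were scaled by TMM library size. Levels of different genes were compared as CPM per kilobase of exon union in GENCODE release M21 (GRCm38), where 99.5% of gene IDs were found, 3 of the chains with another ID version. Where a symbol had several entries, the one with the highest mean count was taken. The fitting code was tested on simulated data. The alternatives were other scalings, DESeq2 1.42.0, no or a stricter count filter, a replicate block, halved counts, a covariate (mean log2 CPM of the 4 Y-linked genes), a fit without the robust option and leaving out each library. The values of 1 chain, which is kept in the counts, are not reported here. Values in every library are otherwise given for called chains, the 12 with the smallest unadjusted p, the most abundant chain of each role and the partner chains Itgb1, Itgb2, Itgb4, Lamb1 and Lamc1. The chains and the partner and marker lists were chosen with earlier results of these data known.

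Total counts were 68119668 to 77555252 per library, so that 3 counts, the limit used for a count of 0, stood for 0.0384 to 0.0444 CPM (counting error only). A chi-square comparison gave 17.2 to 36.0 per gene over the 15 pairs of libraries, and none was treated as a repeat deposit.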

Additional observations from a re-analysis of the deposited data

How the results depend on the processing

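The number of chains called was 1 in the comparison as reported and with relative log expression or upper-quartile scaling, either count filter and halved counts, each time Itga8. It was 3 with DESeq2 (Itga8, Itga4 and Lamc3), 0 with the Y-linked covariate, 0 without the robust option and 0 to 1 with 1 library left out, and 0 in control 2 against the 3 mutants, an alternative chosen after seeing the data. In the fits with 0 calls, 6 to 12 of 35 chains had an unadjusted p below 0.05 in edgeR's test. The number of listed ligand, basement membrane and linker genes called was 2 as reported, 3 with DESeq2 (Frem1, Postn and Vtn), 1 without a count filter, 1 without the robust option, 0 with the Y-linked covariate, 0 to 2 with 1 library left out and 0 in control 2 against the 3 mutants. Over all genes 279 were called with DESeq2, 37 with the Y-linked covariate, 23 to 63 with 1 library left out (41, 25, 23 and 26 without control 1, control 3, mutant 2 and mutant 3) and 33 in control 2 against the 3 mutants, against 64 as reported.

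Itga8 kept its direction in 16 of 16 alternatives and its call in 7. The sign changed for Lamb1 with upper-quartile scaling (-0.00050) and the stricter filter (-0.00029), and its log2 fold change ran from -0.042 to 0.054 with 1 library left out. That of Itgb4 ran from -0.045 to 0.23. Of the 18 chains and 5 partner genes named with alternatives, the other 21 kept their direction throughout. Summing the chain groups without dividing counts by length moved each group's mutant to control ratio by less than the replicate spread, although the sign for Itga4 with Itga9 changed (log2 ratio 0.044, against -0.015 per length). With the replicate block 119 genes, 2 chains (Itga8 and Lamc3, the second at an adjusted p of 0.0473) and 2 partner genes were called. The deviations of same-numbered libraries from their group means correlated at 0.03, 0.11 and 0.13, not above 0.1 in every pair, so the number was not treated as a pairing. Even so, each library correlated best with its own number. Each control also had its lowest chi-square across genotypes with the mutant of its own number (20.2, 19.4 and 27.3 per gene). For mutant 3 the lowest was with control 1 (25.5 per gene). The sample titles do not say whether the numbers mark litters. Chains with few counts (11 to 27 for Itgam) have wide intervals, and a difference there was not detectable at this depth.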

Other observations

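Ilk, the integrin-linked kinase, was listed at 0.606 CPM in mutants and 0.509 CPM in controls on average, while its binding partners Parva and Lims1 were listed at 138 and 87.2 CPM in mutants and 139 and 83.9 CPM in controls. Of the Ilk exon bases 76.7% are shared with Taf10 on the opposite strand, which was listed at 193 to 204 CPM in mutants and 188 to 195 CPM in controls. The Ilk value is therefore uncertain and is given without a comparison.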
